A study of Mus musculus with 4 samples.

Results

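Interferon-stimulated genes (ISGs) were followed one by one in the epidermis of newborn mice that lack Skiv2l in keratinocytes. The set holds 44 ISGs chosen by name from the known targets of type I interferon, and all 44 were found among the 54752 genes of the deposited tables. Of these, 33 were among the 13609 protein-coding genes that passed the filter for testing. RNA came from the epidermis of 4 C57BL/6 pups at postnatal day 0, with 2 Skiv2l fl/fl K14-Cre pups (here knockout) and 2 Skiv2l ctl pups (here control). SKIV2L is the helicase of the cytoplasmic RNA exosome. In the knockout, Cre under the keratin 14 promoter deletes the floxed Skiv2l alleles in keratinocytes, while other cells of the epidermis keep the gene. The control group of the study takes in fl/fl and fl/+ pups without Cre and fl/+ pups with K14-Cre, and which of these each control pup was is not given. Some control pups may therefore carry Cre and 1 deleted allele. Both groups are separate pups of 1 age. The p-values rest on the spread between 2 pups per group, with each gene's variance drawn toward that of other genes at a similar level.

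Type I interferons bind the receptor IFNAR1/IFNAR2, which activates the kinases JAK1 and TYK2. These act on the factor ISGF3, which contains STAT2 and IRF9. ISGF3 binds the interferon-stimulated response element (ISRE) in the promoters of ISGs, whose products block viral entry, replication and translation. Keratinocytes carry the receptors and hold a low level of many ISGs without infection. Because unprocessed self-RNA can be sensed by RIG-I-like receptors, a rise of these genes is the usual readout of such sensing.

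The ISRE is the sequence that the members are known for, and it is shown here for members whose levels are given later. RefSeq promoters on GRCm38.p6, each running from 250 bases before to 50 bases after the annotated start, were at hand for 34 of the 44 members. The ISRE core GAAANNGAAA, or TTTCNNTTTC on the other strand, was in the promoter of 17 of these (50%) and in 3.99% of the 27025 genes with a promoter. The shorter core TTCNNNGAA of the gamma-activated site (GAS), an element of genes that respond to interferon gamma, reads the same on both strands. It was in the promoter of 7 members (20.6%), against 9.55% of all genes. Each sequence is printed 5′ to 3′ on the strand of its gene, with the ISRE core matches in capitals, where overlapping matches run together.
Isg15, minus strand, chr4:156200856-156200915: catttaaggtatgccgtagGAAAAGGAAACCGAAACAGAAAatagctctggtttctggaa
Oas1a, minus strand, chr5:120907526-120907585: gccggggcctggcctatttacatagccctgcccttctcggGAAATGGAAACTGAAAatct
Irgm1, minus strand, chr11:48871421-48871480: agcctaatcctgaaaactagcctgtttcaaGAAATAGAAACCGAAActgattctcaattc
Ifit3, plus strand, chr19:34583365-34583424: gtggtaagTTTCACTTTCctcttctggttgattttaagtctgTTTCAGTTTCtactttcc
Ifit1, plus strand, chr19:34640769-34640828: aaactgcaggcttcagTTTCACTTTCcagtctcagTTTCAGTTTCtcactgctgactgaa
Bst2, minus strand, chr8:71537565-71537624: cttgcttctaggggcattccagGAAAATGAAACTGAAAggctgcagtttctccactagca
Stat2, plus strand, chr10:128270251-128270310: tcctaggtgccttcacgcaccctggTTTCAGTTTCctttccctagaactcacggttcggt
The first match began 78 bases before the start of Isg15, 20 before that of Oas1a, 30 before that of Irgm1 and 156 before that of Ifit3. The stretch printed for Ifit3 is the same, base for base, in the promoter of Ifit3b. Among the tested members, 11 had an ISRE core, and the 3 of them called lower were Ifit3, Irgm1 and Oas1a. Another 14 tested members had a promoter without it, and the 4 called lower were Cmpk2, Dtx3l, Sp100 and Uba7. Over all tested genes 25.4% were called lower. Ifi27 and Ifi27l2a, also called lower, had no promoter at hand and are in neither group. The median log2 fold change was -0.25 with the core and -0.43 without it, and the difference was not tested. A match describes letters in this window and is not a measured binding site.

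The libraries were of similar depth. The ratio of coverage to FPKM (fragments per kilobase of transcript, relative to the size of the library), which equals aligned gigabases where coverage is the mean depth per base, was 6.085 and 6.274 in control pups against 5.843 and 5.931 in knockout pups. Skiv2l itself had an FPKM of 19.28 and 19.07 in control pups against 10.85 and 8.56 in knockout pups, 50.6% of the control mean, and fell by 0.92 on the log2 scale (SE 0.12, adjusted p = 0.00368). Both knockouts lay below both controls, as their labels state. The median FPKM of the tested genes was 7.73 and 7.88 in control pups against 6.82 and 6.65 in knockout pups, and the median log2 fold change of all tested genes was -0.20. Results are therefore given for FPKM as deposited and again after the libraries were brought to a common median FPKM, where the median over all tested genes is -0.03.

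None of the 33 tested members was called higher in the knockout on the deposited FPKM. In limma on log2(FPKM + 1), with adjustment over all 13609 genes at 0.05, 9 of the 33 tested members (27.3%) were called lower, and 0 were called higher. Over all tested genes 25.4% were called lower and 8.99% higher, so the members' share of lower calls was near the background. Cmpk2 and Ifit3, both called lower, exceeded the filter of 0.5 in control pups only, so a higher control level was a condition of their being tested. The same held for Ifit2, Oas2, Oas3, Epsti1, Samd9l, Usp18 and Gbp2, which were not called. At an unadjusted p under 0.05 in limma, 17 members were lower and 1 was higher. The share of all tested genes at this looser threshold was not computed and is at least the 25.4% and 8.99% above. These counts therefore cannot be set against the background. After median scaling of FPKM the members had 2 lower calls (6.06%) and 1 higher call (3.03%), against 11.9% and 13.9% of all genes. The lower calls were Ifi27 and Ifi27l2a, and the higher call was Parp12. The other 7 members called lower as deposited (Cmpk2, Dtx3l, Ifit3, Irgm1, Oas1a, Sp100 and Uba7) then had adjusted p-values from 0.0551 for Cmpk2 to 0.135 for Dtx3l. The median log2 fold change of the tested members was -0.38 as deposited and -0.30 after scaling. In all 33 the upper 95% limit of the change was under 1, a doubling on the log2(FPKM + 1) scale, with the highest limit at 0.80 as deposited and 0.97 after scaling. At an FPKM below 1, the added 1 makes this scale understate a change in FPKM.

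Of the 11 members not tested, 9 were under an FPKM of 0.5 in every library (Ddx60, Gbp3, Gbp7, Herc6, Ifi44, Ifit1, Ifit3b, Oasl1 and Rsad2) and 2 are annotated as polymorphic pseudogenes (Mx2 and Oas1b). The groups were therefore also compared without a model. Both knockouts were below both controls in 21 of the 33 tested members (63.6%) and above them in 1 (3.03%), against 55.3% and 18.2% of all tested genes. Among the 21 are all the members named above that exceeded the filter in control pups only, except Gbp2. Over all 44 members, tested or not, 27 had both knockouts below, 1 had both above and 16 overlapped. The knockout mean was below the control mean in 34 of the 44 members, a count with no share of all genes beside it. Over the 44 members, tested or not, the median knockout mean was 59.7% of the control mean, against 84.4% over all tested genes. Those genes leave out any under the filter and are mostly at a higher FPKM, and no genes matched for FPKM were compared. Most members were lowly expressed in this tissue, with 28 of 44 at a mean FPKM under 1, 13 from 1 to 10 and 3 at 10 or more. Of the 3068 tested genes with a mean FPKM under 2, 15.5% were called lower and 5.54% higher as deposited, while 7 of the 22 such members were called lower. Among these 7, Cmpk2 and Ifit3 were tested only because the controls exceeded the filter. After median scaling only Ifi27l2a of the 7 stayed called, and the share of such genes was not computed then. These counts therefore do not show an excess of falls among the members.

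**Figure D1:**
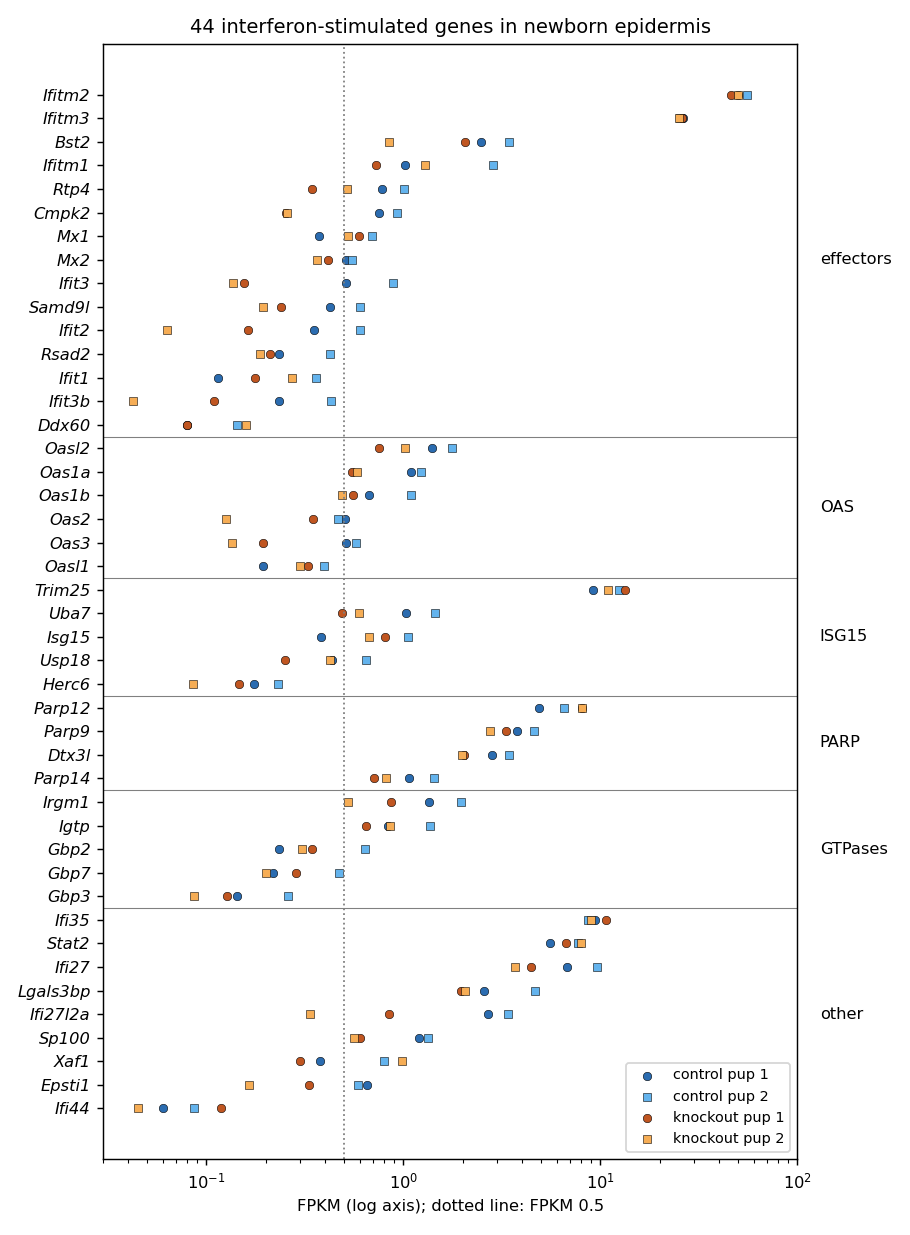
FPKM of each of the 44 members in each of the 4 libraries on a log axis, grouped by role, with blue points for control and orange points for knockout pups. Most members lie near or below an FPKM of 1, and Ifitm2 and Ifitm3 are the highest.

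On the log2(FPKM + 1) scale the 2 largest falls were in the IFI27 family, small interferon-induced membrane proteins of mitochondria and the nuclear envelope. Ifi27l2a had an FPKM of 2.675 and 3.39 in control pups against 0.847 and 0.335 in knockout pups. Both knockouts were below both controls, their mean was 19.5% of the control mean, and the log2 change was -1.35 (SE 0.20, adjusted p = 0.0047). Ifi27 had an FPKM of 6.77 and 9.62 in control pups against 4.44 and 3.69 in knockout pups. The knockout values were again below both controls, their mean was 49.6% of the control mean, and the change was -0.85 (SE 0.18, adjusted p = 0.015). After median scaling the changes were -1.24 (adjusted p = 0.00698) and -0.67 (adjusted p = 0.0323), so both remained called. As percent of the control mean, several members at low FPKM had a lower knockout mean than Ifi27, such as Ifit3 (21%), Ifit2 (23.6%) and Oas3 (30.3%), of which Ifit3 was called. In a fit without control 2, where control 1 is assumed to vary like the knockouts, neither IFI27 gene was called, with an adjusted p of 0.0548 for Ifi27l2a and 0.101 for Ifi27, and without knockout 2 that of Ifi27 was 0.0554.

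Of the effectors against viral entry and viral RNA, 2 of 10 tested were called lower and 0 higher, against 25.4% and 8.99% of all tested genes. The 2, Cmpk2 and Ifit3, exceeded the filter in control pups only. CMPK2, a mitochondrial nucleotide kinase, is encoded beside the antiviral enzyme viperin. Cmpk2 had an FPKM of 0.752 and 0.930 in control pups against 0.253 and 0.256 in knockout pups, and the log2 change was -0.55 (SE 0.15, adjusted p = 0.0318). The IFIT proteins bind viral RNA that lacks host cap methylation. Ifit3 had an FPKM of 0.509 and 0.884 in control pups against 0.156 and 0.137 in knockout pups, with a change of -0.56 (SE 0.17, adjusted p = 0.0484). Both knockouts lay below both controls, but 41.1% of the 75-base stretches of Ifit3 also occur in Ifit3b, so reads cannot be assigned to either with certainty. Ifit3b, under the filter, had an FPKM of 0.234 and 0.430 in control pups against 0.110 and 0.042 in knockout pups. Ifit2 had an FPKM of 0.353 and 0.605 in control pups against 0.163 and 0.063 in knockout pups, and it did not pass the test (adjusted p = 0.104). Ifit1, under the filter and overlapping, ran from 0.114 to 0.362.

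The tetherin gene and the IFITM genes, which restrict release and entry of enveloped viruses, were the highest effectors. Bst2 (tetherin) had an FPKM of 2.48 and 3.45 in control pups against 2.07 and 0.848 in knockout pups, which were lower in both but not called (-0.73, adjusted p = 0.0758). Ifitm2 had an FPKM of 49.96 and 55.7 in control pups against 45.8 and 50.2 in knockout pups. Ifitm3 had an FPKM of 26.2 and 25.3 in control pups against 25.96 and 24.99 in knockout pups. Both IFITM genes overlapped between groups, and their log2 changes were -0.13 and -0.02 as deposited and 0.07 and 0.19 after scaling, so the sign depends on the scaling and neither passed the test. The value of Ifitm2 is uncertain because 42.0% of its 75-base stretches occur in other genes, including Gm45717. Ifitm1 had control values of 1.01 and 2.86, which were further apart than its groups. The remaining effectors were low. Rtp4, a receptor chaperone, had an FPKM of 0.775 and 1.01 in control pups against 0.342 and 0.518 in knockout pups (adjusted p = 0.0904). Samd9l, an antiviral translation inhibitor, had 0.425 and 0.602 in control pups against 0.239 and 0.194 in knockout pups (adjusted p = 0.155). Mx1, the dynamin-like restriction factor, overlapped and was at 104% of the control mean. Mx2 had an FPKM of 0.510 and 0.547 in control pups against 0.416 and 0.364 in knockout pups. It is annotated as a polymorphic pseudogene, and when such genes entered the fit its change was -0.14 (adjusted p = 0.472). Rsad2, which encodes viperin, had 0.234 and 0.425 in control pups against 0.210 and 0.187 in knockout pups, under the filter, as was the RNA helicase gene Ddx60.

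The OAS enzymes sense double-stranded RNA and make the 2-5A that activates RNase L. In 4 of 4 tested members of this family the change was negative, and 1 was called lower. Over all tested genes the median change was -0.20 and 25.4% were called lower. Oas2 and Oas3 exceeded the filter in control pups only, so their negative sign was favored by the filter. Oas1a had an FPKM of 1.10 and 1.23 in control pups against 0.551 and 0.583 in knockout pups, 48.9% of the control mean, with a change of -0.46 (SE 0.14, adjusted p = 0.0447). Its value is uncertain because 47.6% of its 75-base stretches also occur in Oas1g. Oas3 had an FPKM of 0.514 and 0.572 in control pups against 0.195 and 0.135 in knockout pups (adjusted p = 0.0762). Oas2 had 0.504 and 0.468 in control pups against 0.346 and 0.126 in knockout pups (adjusted p = 0.228). Neither of these was called although both knockouts lay below both controls. Oasl2 had 1.40 and 1.77 in control pups against 0.755 and 1.03 in knockout pups (adjusted p = 0.0655). Oas1b, the other polymorphic pseudogene of the set, had 0.667 and 1.10 in control pups against 0.557 and 0.486 in knockout pups (adjusted p = 0.206 when included). Oasl1 was under the filter and overlapped.

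ISG15 is a ubiquitin-like modifier whose conjugation needs the E1 enzyme UBA7, and USP18 removes it and also dampens IFNAR2 signalling. Isg15, the most used ISG readout, had an FPKM of 0.382 and 1.056 in control pups against 0.810 and 0.670 in knockout pups. The control pups bracketed both knockouts, and the change was 0.04 (SE 0.22, adjusted p = 0.886). Uba7 had 1.03 and 1.45 in control pups against 0.489 and 0.596 in knockout pups, and it was called lower (-0.53, SE 0.16, adjusted p = 0.0444). Usp18 had 0.434 and 0.643 in control pups against 0.251 and 0.425 in knockout pups, which were lower in both but not called (adjusted p = 0.355). Trim25, the E3 ligase that activates RIG-I, was among the 5 highest members, with 9.18 and 12.5 in control pups against 13.4 and 10.9 in knockout pups, and the groups overlapped. Herc6, the mouse ISG15 ligase, was under the filter, at 0.175 and 0.230 in control pups against 0.146 and 0.085 in knockout pups.

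The PARP and DTX3L genes, which ADP-ribosylate and ubiquitylate targets in antiviral signalling, held the 1 member higher in both knockouts. Parp12, a mono-ADP-ribosyltransferase, had an FPKM of 4.86 and 6.52 in control pups against 8.04 and 8.11 in knockout pups, 142% of the control mean. Its change was 0.45 (SE 0.14, adjusted p = 0.0535) as deposited, just outside the threshold, and 0.64 (adjusted p = 0.0202) after median scaling. Dtx3l, partner of PARP9, had 2.82 and 3.44 in control pups against 2.02 and 1.98 in knockout pups, and was called lower as deposited (-0.46, SE 0.13, adjusted p = 0.0421) but not after scaling (adjusted p = 0.135). Parp9 had 3.76 and 4.61 in control pups against 3.32 and 2.75 in knockout pups (adjusted p = 0.0956). The exons of Parp9 and Dtx3l overlap on opposite strands, and the strandedness of the counting is not stated, so their reads may not be separable. The exons of Ifi35, Usp18 and Oasl1 also overlap a gene on the other strand, and those of Uba7 overlap Gm20661 on its own strand. Parp14, a macro-PARP, had 1.07 and 1.44 in control pups against 0.711 and 0.814 in knockout pups (adjusted p = 0.118).

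Among the GTPases, guanylate-binding proteins and immunity-related GTPases that attack vacuoles of intracellular microbes, 1 of 3 tested was called lower. The share over all tested genes was 25.4%. Irgm1 had an FPKM of 1.35 and 1.96 in control pups against 0.865 and 0.522 in knockout pups, 42.0% of the control mean, with a change of -0.65 (SE 0.18, adjusted p = 0.0387). Igtp and Gbp2 overlapped. Gbp2 was 0.233 in control 1 and 0.636 in control 2, a wider gap than between groups. Gbp3 and Gbp7 were under the filter, and Gbp3 alone of them had both knockouts below both controls, at 0.144 and 0.259 against 0.127 and 0.087.

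The last group held signalling, nuclear body and other members. Sp100, a nuclear body component, had an FPKM of 1.20 and 1.33 in control pups against 0.606 and 0.560 in knockout pups and was called lower (-0.52, SE 0.14, adjusted p = 0.0315). Lgals3bp, a secreted galectin-binding protein, had 2.57 and 4.69 in control pups against 1.95 and 2.06 in knockout pups (adjusted p = 0.0896). Epsti1 had 0.655 and 0.586 in control pups against 0.334 and 0.165 in knockout pups (adjusted p = 0.103). Stat2, a subunit of ISGF3, had 5.54 and 7.66 in control pups against 6.71 and 7.98 in knockout pups. Ifi35, which binds NMI, was among the 5 highest with 9.42 and 8.70 in control pups against 10.6 and 8.95 in knockout pups. Both overlapped between groups. Xaf1, a pro-apoptotic factor, spread from 0.299 to 0.982 among the knockouts, and Ifi44 was under the filter.

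**Figure D2:**
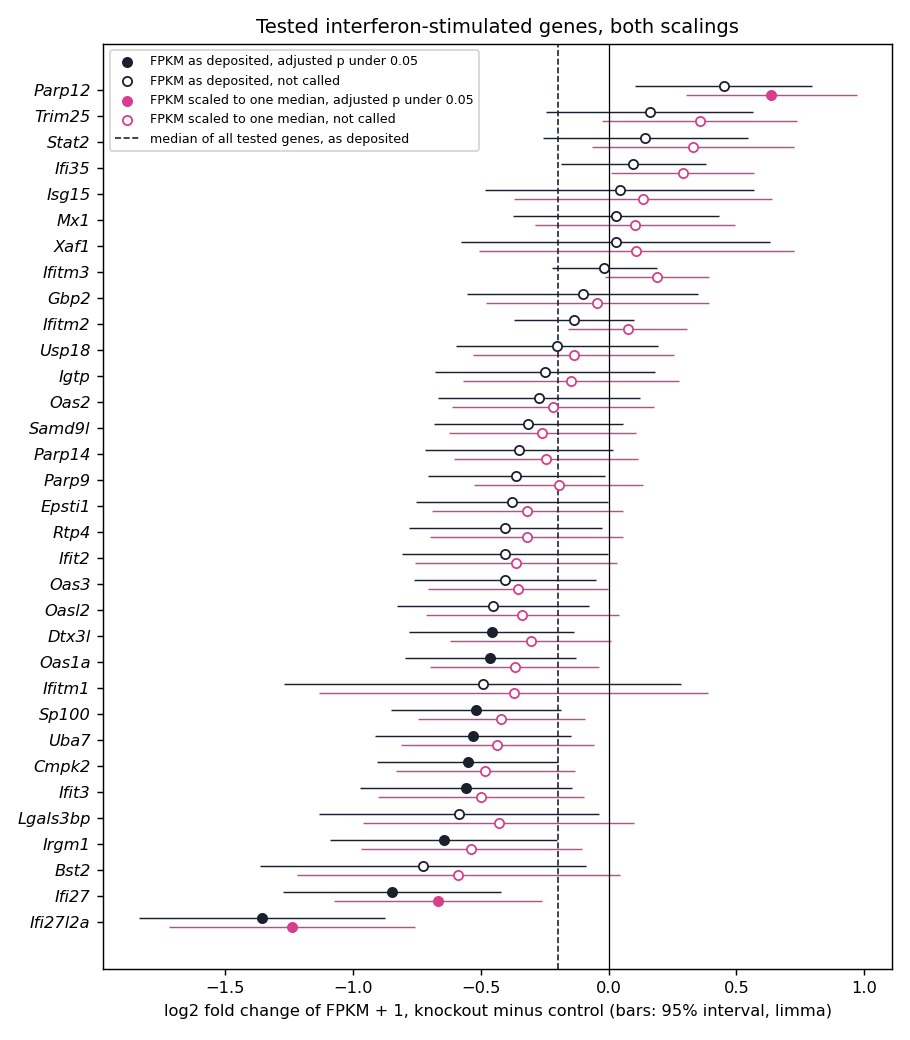
Log2 fold change of FPKM + 1 (knockout minus control) with 95% intervals for the 33 tested members, as deposited (black) and after scaling to one median (pink). Filled points have an adjusted p under 0.05, and the dashed line marks the median of all tested genes, -0.20.

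The control pups differed from each other in these genes. Control 2 was above control 1 in 40 of the 44 members, and in 29 of the 33 tested (87.9%), against 54.2% of all tested genes and 51.1% of those with a mean FPKM under 2. The median ratio of control 2 to control 1 was 1.41 over the members and 1.01 over all tested genes. In 17 of the 44 members, tested or not, the ratio was at least 1.5, against 4.46% of all tested genes. These ratios were not compared with genes matched for low FPKM. Isg15, Gbp2, Ifitm1 and Ifit1 had ratios of 2.76, 2.74, 2.82 and 3.17. The knockout pups did not show such a tilt, with knockout 2 above knockout 1 in 16 of 44 members, against 42.8% of all genes. Fits of the deposited FPKM that left out 1 pup made fewer calls over all genes too, and in them the lone pup of a group is assumed to vary like the other group. Without control 2, 0 of 29 tested members were called lower, against 5.99% of all tested genes. Without control 1 there were 3 of 32 (9.38%), against 7.68%. Without knockout 1 there were 4 of 33 (12.1%), against 23.9%, and without knockout 2 there was 1 of 33 (3.03%), against 19.2%. Each of these 4 fits has 1 pup in a group, so calls in them, higher or lower, do not decide whether a member rose or fell. The macrophage markers Csf1r, Adgre1, C1qa, C1qb, C1qc and Mrc1 also had control 2 above control 1 in 6 of 6, with a median ratio of 1.48, and their part in this difference was not tested.

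**Figure D3:**
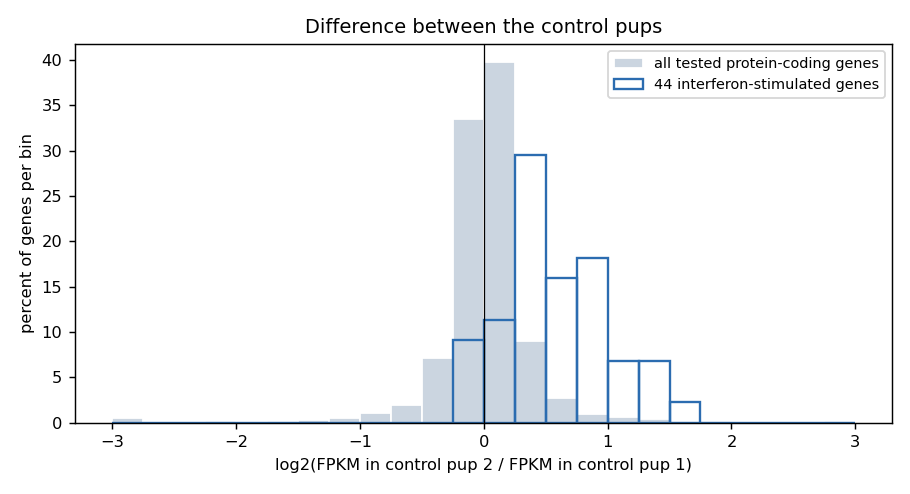
Distribution of log2(control 2/control 1) for all tested genes above 0 in both control pups (grey) and for the 44 members (blue outline), as percent of genes per bin, with values beyond the axis counted in the end bins. The members are shifted to the right of 0, with a median ratio of 1.41.

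The interferon genes themselves were at or near 0. Of 21 ligand genes 15 were at 0 in all 4 libraries, among them Ifnb1, Ifng and Ifnl2. Ifna1 was at 0.048 in knockout 2 alone, Ifnl3 at 0.028 in knockout 2 alone, and Ifne at 0.101 in knockout 1 alone. Ifna13 was at 0.003 in control 2 and 0.042 in knockout 1, and Ifnz ran from 0.039 to 0.117. The keratinocyte interferon Ifnk was the only ligand tested, with 0.666 and 0.925 in control pups against 0.470 and 0.3001 in knockout pups (-0.37, adjusted p = 0.116). Ifnk exceeded the filter of 0.5 in control pups only, so a higher control level was a condition of its being tested. Listed values this low do not show absence, only that no more was measured at this depth.

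The receptors and kinases were expressed in all 4 libraries, and 3 of the 16 tested receptor, signalling and inhibitor genes were called higher and 4 lower, against 8.99% and 25.4% of all tested genes. Ifngr1, the ligand-binding chain of the interferon gamma receptor, had an FPKM of 12.0 and 12.1 in control pups against 25.9 and 25.4 in knockout pups, 212% of the control mean (1.03, adjusted p = 0.000778). Jak2, the kinase on IFNGR2, had 6.96 and 7.57 in control pups against 11.8 and 11.7 in knockout pups (0.63, adjusted p = 0.00602). Socs3, the feedback inhibitor, had 14.5 and 11.0 in control pups against 24.0 and 16.9 in knockout pups (0.63, adjusted p = 0.0494). All 3 remained called after median scaling. The type I receptor gene Ifnar1 had 12.5 and 12.9 in control pups against 10.04 and 10.1 in knockout pups (-0.31, adjusted p = 0.0442). Ifnlr1, of the interferon lambda receptor, had 4.75 and 6.18 in control pups against 3.34 and 3.79 in knockout pups (-0.50, adjusted p = 0.0444). Ptpn6, the phosphatase SHP-1, had 9.48 and 9.75 in control pups against 5.42 and 4.99 in knockout pups (-0.78, adjusted p = 0.00341), and Pias1, a STAT inhibitor, had 9.68 and 8.67 in control pups against 6.73 and 7.19 in knockout pups (-0.35, adjusted p = 0.0473). Of these 4, only Ptpn6 stayed called after scaling (adjusted p = 0.00878). Irf9, at 9.42 and 12.4 in control pups against 8.001 and 10.2 in knockout pups, was not called. Without control 1 there was 1 higher and 1 lower call among the pathway genes, without control 2 there were 1 and 0, and the lower calls were 2 without knockout 1 and 1 without knockout 2, in fits that called fewer of all genes as given above. Ifngr1 was called in each of these 4 fits.

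**Figure D4:**
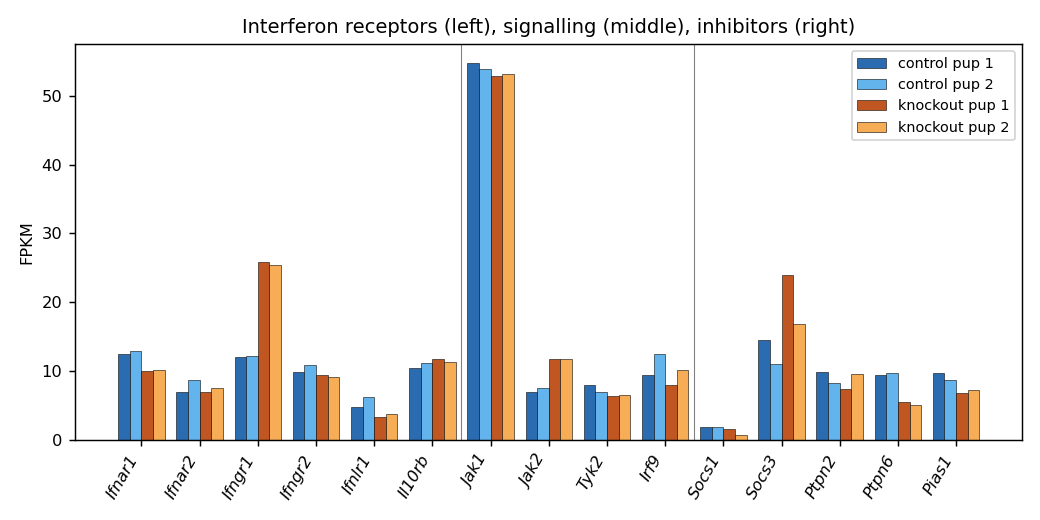
FPKM of 6 interferon receptor genes, 4 signalling genes and 5 inhibitor genes, 1 bar per library. Ifngr1 is at 25.9 and 25.4 in knockout pups and at 12.0 and 12.1 in the controls, while Jak1 lies between 52.95 and 54.83 in all 4 libraries.

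Other ISGs outside the set were called in both directions. Of 68 further ISGs, a list that also holds Irf9, 67 were in the tables and 50 were tested, of which 5 (10%) were called higher and 12 (24%) lower, near the 8.99% and 25.4% of all tested genes. After median scaling there were 7 calls in each direction, against 13.9% higher and 11.9% lower over all genes. The rises were led by Ifi204, a DNA sensor, at 2.82 and 3.07 in control pups against 12.4 and 11.0 in knockout pups (1.68, adjusted p = 0.000388). Slfn2, of the Schlafen family, followed at 1.298 and 2.16 in control pups against 7.84 and 5.54 in knockout pups (1.498, adjusted p = 0.00424). Ly6e, a membrane protein, was at 32.5 and 38.7 in control pups against 65.8 and 64.1 in knockout pups (0.86, adjusted p = 0.00271). The falls were led by Irf7, the factor that amplifies interferon transcription, at 25.8 and 26.9 in control pups against 2.83 and 1.65 in knockout pups, 8.52% of the control mean (-3.10, adjusted p = 0.000265). Tor3a fell by 1.34 (adjusted p = 0.00104) and Parp10 by 1.05 (adjusted p = 0.00407). These 6 remained called after scaling. Fits that left out 1 pup do not decide on the genes of this list, as the lone pup's spread is taken from the other group.

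Markers of several cell types differed between the groups, in both directions. Over all tested genes 25.4% were called lower and 8.99% higher, the background for the counts below. In bulk RNA, fewer cells of a type and less RNA per cell cannot be told apart. The summed FPKM of 6 pan-leukocyte markers was 32.9 and 37.4 in control pups against 20.9 and 17.4 in knockout pups, and 4 of 6 were called lower. For 6 Langerhans and antigen-presenting cell markers the sums were 23.3 and 27.8 against 7.17 and 6.81, and 4 of 5 tested were called lower. The defining gene of Langerhans cells, Cd207, was at 0.040 and 0.042 in the controls and at 0 in both knockouts. It was under the filter, with a coverage of 0.244 and 0.261 in the controls. Values this low do not show a difference between the groups. The macrophage sums were 31.2 and 48.2 against 28.2 and 21.7 with 1 of 6 called lower, and the T cell sums were 2.75 and 3.36 against 1.77 and 2.06 with 0 of 3 tested called. The erythroid sums were 134 and 125 against 62.0 and 80.7, with 4 of 5 called lower. Keratinocyte markers were abundant in all 4 libraries, as the tissue label states, but they too differed between the groups. Krt14 was at 1736 and 1812 in control pups against 7381 and 7312 in knockout pups (2.05, adjusted p = 0.000171). Krt15 was at 462 and 428 against 92.1 and 155, and was called lower (adjusted p = 0.00258), while Krt5 was at 2003 and 2075 against 1761 and 1759 and was not called. Of the 7 basal markers 2 were called higher and 1 lower, and of the 7 suprabasal markers 0 and 2. Among the 7 neutrophil genes, Ly6g and Elane were at 0 in all 4 libraries. The only one tested, Cxcr2, was at 0.127 and 0.208 against 6.51 and 5.56 and was called higher (2.59, adjusted p = 0.000202). Cxcr2 exceeded the filter in knockout pups only, so a higher knockout level was a condition of its being tested. Plasmacytoid dendritic cells make type I interferon, and of their 3 markers Siglech was at 0.102 and 0.212 against 0.076 and 0, Pacsin1 was not called, and Ccr9, at 1.15 and 1.15 against 2.13 and 2.24, was called higher (adjusted p = 0.0185). The fibroblast sums, 61.4 and 69.1 against 21.97 and 25.1, were mostly Dcn, at 56.96 and 62.7 against 16.9 and 21.4. Of the 5 fibroblast markers tested 2 were called lower, and 2 had a positive change, among them Pdgfra at 265% of the control mean (adjusted p = 0.0601). After median scaling Dcn was called lower and Pdgfra higher (adjusted p = 0.047). Pdgfra, like Cxcr2, exceeded the filter in knockout pups only, so its positive sign was favored by the filter. The part of other cell types in the members' falls was not tested.

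**Figure D5:**
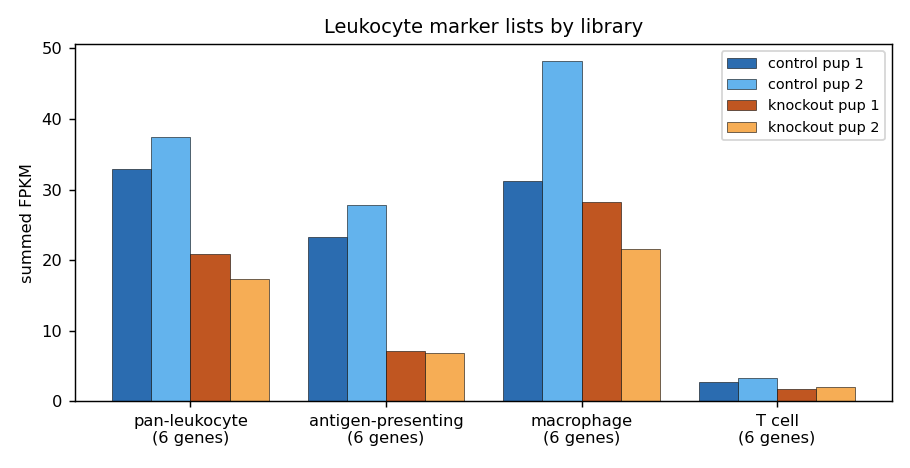
Summed FPKM of the 6 markers in each of 4 leukocyte lists, 1 bar per library. In all 4 lists both knockout bars lie below both control bars, and control 2 has the highest bar.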

How the data were processed

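RNA from the epidermis of 4 pups at postnatal day 0, 2 per genotype, was sequenced with Illumina libraries, and the authors processed the reads with their institution's RNA-seq workflow on GRCm38, per the labels. The aligner, its version and the strandedness are not given in the sources used here. The authors deposited FPKM, TPM (scaled to one sum per library) and a coverage signal (mean depth per base) for each gene. Counting error could not be computed without counts, and 2 pups per group limit the precision. FPKM was summed per gene ID. Coordinates of 54037 of 54752 gene IDs match GENCODE M21. The 13609 coding genes exceeding an FPKM of 0.5 in 1 library or more entered a two-sided limma fit (version 3.58.1, R 4.3.3, eBayes with a mean-variance trend) of log2(FPKM + 1), with Benjamini-Hochberg adjustment and calls at 0.05. Median scaling of FPKM, chosen after seeing the data, multiplied each library by a factor from 0.920 to 1.09. The method was tested on simulated data.

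The members and lists were chosen with earlier results of these data known. Named genes were Skiv2l, members called under either scaling, the 5 highest members, members whose groups do not overlap, called pathway genes and ligands above 0, and the 3 largest rises and falls of the further ISGs. Other members named were described after their values were seen. Promoters are from RefSeq, and shared 75-base stretches were counted on GENCODE M21 transcripts. Replicate numbers do not pair the pups: the correlation of deviations was -0.077 between same-numbered pups. The alternatives were a pseudocount of 0.1, other filters, TPM, median and quantile scaling, the replicate block, eBayes without a trend, polymorphic pseudogenes and leaving out each library. A gene of the pathway lists is counted in them but not reported here.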

Additional observations from a re-analysis of the deposited data

How the results depend on the processing

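The members' calls depended on the scaling. The lower calls went from 9 to 2 (6.06%) and the higher calls from 0 to 1 (3.03%) under each scaling. These were median scaling of log2 values, quantile normalization and median scaling of FPKM. Over all tested genes the shares were then 11.5%, 14.1% and 11.9% lower, and 14.1%, 12.4% and 13.9% higher. The median log2 fold change of the members went from -0.38 to -0.19, -0.22 and -0.30. Polymorphic pseudogenes with FPKM scaling gave 1 higher and 2 lower, against 13.9% and 11.8% of all genes, and a median of -0.26. A pseudocount of 0.1 gave -0.77, with 9 lower (27.3%), against 25.6% of all genes. With FPKM scaling too it gave -0.57, with 1 higher and 2 lower, against 14.2% and 12.0% of all genes. TPM gave -0.54. With no filter 2 of 42 members were lower (4.76%), against 4.23% of all genes. With FPKM above 1 in at least 2 libraries, 1 of 19 members was higher (5.26%, against 10.2%) and 7 were lower (36.8%, against 29.4%). With the replicate block 1 member was higher and 6 were lower, and with it and either scaling 1 and 2, with a median of -0.19 under scaling of log2 values. Leaving out 1 library, which leaves an arm of 1 pup assumed to vary like the other arm and lowers the calls over all genes to between 5.99% and 23.9% lower as deposited, gave 0 to 4 lower calls and a median from -0.47 to -0.29 as deposited, and 0 to 3 lower, 0 to 1 higher and -0.36 to -0.21 after scaling.

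The further ISGs, with 5 higher and 12 lower, had 8 and 7 under median scaling of log2 values, 8 and 6 under quantile normalization, 1 and 5 with no filter, 7 lower under FPKM scaling with any pseudocount or gene set, and 8 and 5 or 6 lower with the replicate block and the 2 scalings. Leaving out 1 library gave 3 to 4 higher and 3 to 10 lower as deposited, and 3 to 8 and 2 to 9 after scaling. Apart from the fits without 1 library, the shares of all genes called lower in these settings are given with the members above. The pathway genes, with 3 higher and 4 lower, had 1 lower under every scaling, with or without the block, and with no filter. They had 2 lower with the replicate block alone or eBayes without a trend. Leaving out 1 library gave 1 to 3 higher and 0 to 2 lower as deposited, and 2 to 3 and 0 to 2 after scaling.

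No called gene changed sign, but 11 uncalled members did. Gbp2 was 0.086 under median scaling of log2 values with or without the block and 0.061 under quantile normalization. Ifitm2 was 0.053 under scaling of log2 values with or without the block, 0.0745 under FPKM scaling with or without the block, 0.0758 with a pseudocount of 0.1 and 0.0755 with polymorphic pseudogenes. Ifitm3 was 0.17 under scaling of log2 values with or without the block, 0.080 under quantile normalization, 0.19 under FPKM scaling, with the block or polymorphic pseudogenes too, and 0.20 with a pseudocount of 0.1. Xaf1 was -0.002 with TPM. Leaving out 1 library, under either scaling, gave Ifi35 -0.016 to 0.39, Ifitm1 -0.96 to 0.078, Ifitm2 -0.21 to 0.16, Ifitm3 -0.042 to 0.22, Igtp -0.43 to 0.024, Isg15 -0.24 to 0.40, Mx1 -0.12 to 0.24, Stat2 -0.059 to 0.52, Trim25 -0.043 to 0.55 and Xaf1 -0.28 to 0.44. The cause of these differences was not tested, beyond the smaller number of libraries or genes fitted.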
